A study of Mus musculus with 12 samples.

Results

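CT-26 mouse colon carcinoma cells that had been primed by macrophages were compared according to the kind of macrophage that primed them. In 3 samples the priming cells were RAW264.7 macrophages carrying a short hairpin RNA against Abhd5 (knockdown-primed CT-26), and in the other 3 they were RAW264.7 cells carrying the pLKO control vector (control-primed CT-26). The members were the 6 arrays whose titles carry the suffix (T), out of 12 arrays in the series, the remaining 6 being the RAW264.7 macrophages themselves. The CT-26 cells of both groups were not themselves silenced, both groups had met macrophages, and CT-26 cells that had met none were not analysed here. The labels do not say how or for how long priming was done, whether macrophages were removed before lysis, or whether a group's 3 samples came from separate cultures, so the p-values measure only the spread between these samples. Total RNA was extracted with TRIzol, amplified, labelled with Cy3 and hybridised to 1-colour Agilent arrays. Levels are log2 signals relative to the array's 75th percentile, and changes are log2 differences (knockdown-primed less control-primed) given with the limma fit's standard error (SE) and n = 3 arrays per group. A gene was called when its limma p-value, adjusted by the Benjamini-Hochberg method over all tested genes, was under 0.05.

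ABHD5 (CGI-58) is the co-activator of the lipase ATGL, which starts the breakdown of triglycerides stored in lipid droplets, and macrophages lacking it store more lipid. Macrophages in tumours act on carcinoma cells through secreted cytokines, and carcinoma cells answer through NF-kB, STAT3 and C/EBP factors, which switch on acute phase proteins and chemokines. Acute phase proteins such as serum amyloid A and lipocalin bind lipids, iron carriers or proteases, while the CXC chemokines with a Glu-Leu-Arg motif attract neutrophils and CCL2 and CCL7 attract monocytes.

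All 6 arrays lay on 1 slide and were read in 1 scan. Spots well above background made up 68.3% to 77.3% on the control-primed arrays and 59.3% to 67.0% on the knockdown-primed arrays, and the median processed signal was 288.9 to 291.4 against 139.8 to 239.4, so the knockdown-primed arrays were dimmer without overlap. Position on the slide was not balanced, since slide column 2 held 2 control-primed arrays, column 4 held 2 knockdown-primed arrays (replicates 2 and 3), and column 3 held 1 of each (replicate 1 of both groups). Across 27074 detected names, arrays correlated at 0.989 to 0.9943 within groups and at 0.9782 to 0.99 between them. CT-26 is described as a colon carcinoma line, and of 10 epithelial markers 6 were well above background on all 3 arrays of each group, Krt20 at a mean log2 level of 4.80 in control-primed and 4.59 in knockdown-primed cells, whereas Cdh1 and Vil1 were not well above background on any of the 6 arrays. All 7 mesenchymal markers, Vim, Col1a1, Col1a2 and Fn1 among them, were well above background on all 6. The summed linear level of 34 macrophage markers was 57.1 to 62.9 on control-primed arrays, 59.3 to 76.9 on knockdown-primed arrays and 514 to 615 on the RAW264.7 arrays, and Itgam, at a mean log2 level of 5.60 and 5.76, made up most of the CT-26 sum. Of these 34 markers 22 were well above background on all 3 control-primed arrays and 19 on all 3 knockdown-primed arrays. Among 8 defining macrophage markers, Ptprc, Csf1r, Cd68, Itgam and Lyz2 were so on all 6 CT-26 arrays. Adgre1 and Spi1 were so on none, and Tyrobp on the 3 control-primed arrays only. In control-primed and knockdown-primed CT-26 Csf1r lay at 0.80 and 0.66, Cd68 at 1.73 and 0.90 and Lyz2 at -4.39 and -4.64. In control and knockdown RAW264.7 cells Csf1r lay at 2.46 and 2.12, Cd68 at 5.56 and 4.96 and Lyz2 at 3.65 and 5.53. The part of macrophage RNA in the CT-26 values was not tested beyond these levels.

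CT-26 cells primed by Abhd5-silenced macrophages had higher levels of a compact group of acute phase, chemokine and NF-kB genes, higher levels of some DNA replication and histone genes, and lower levels of a larger and dimmer set of transcripts. In bulk RNA, more cells of a kind and more RNA per cell cannot be told apart. Of 24997 genes tested, 1549 (6.2%) were called, 729 higher (2.92%) and 820 lower (3.28%). At least 2-fold changes numbered 126 higher (0.504%) and 476 lower (1.9%), together 2.41%. The groups did not overlap, with all knockdown-primed arrays above all control-primed arrays, in 24.3% of tested genes, and the reverse held in 11.4%. Among 14259 protein-coding genes with a plain symbol the balance was the other way, 496 higher (3.48%) and 356 lower (2.5%), while 5287 features without a RefSeq symbol held 85 of the higher and 255 of the lower calls. Over the tested genes the median change was 0.10. The split depended on scaling: 47.1% of calls were higher as reported, 62.4% with median centring, 30.4% with the percentile taken over probes detected on all 6 arrays, and 63.9% with normexp background correction.

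Direction moved with brightness. With genes cut into 5 equal groups by mean level (quintiles), in the dimmest quintile 99 were higher and 270 lower, in the brightest quintile 176 were higher and 22 lower, and the median change of the brightest quintile was 0.26 against -0.01 in the dimmest. The dimmer signal of the knockdown-primed arrays moved with these counts, and its part in them was not tested. The total was sensitive to single arrays, at 275 calls without control-primed replicate 2, 92 without control-primed replicate 3, 2950 without knockdown-primed replicate 1, 642 without knockdown-primed replicate 2 and 221 without knockdown-primed replicate 3, and with only the knockdown-primed array of column 3 kept in its group it was 16, the lone array being assumed to vary like the others. Without a filter on background 41 of 35080 names were called.

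**Figure D1:**
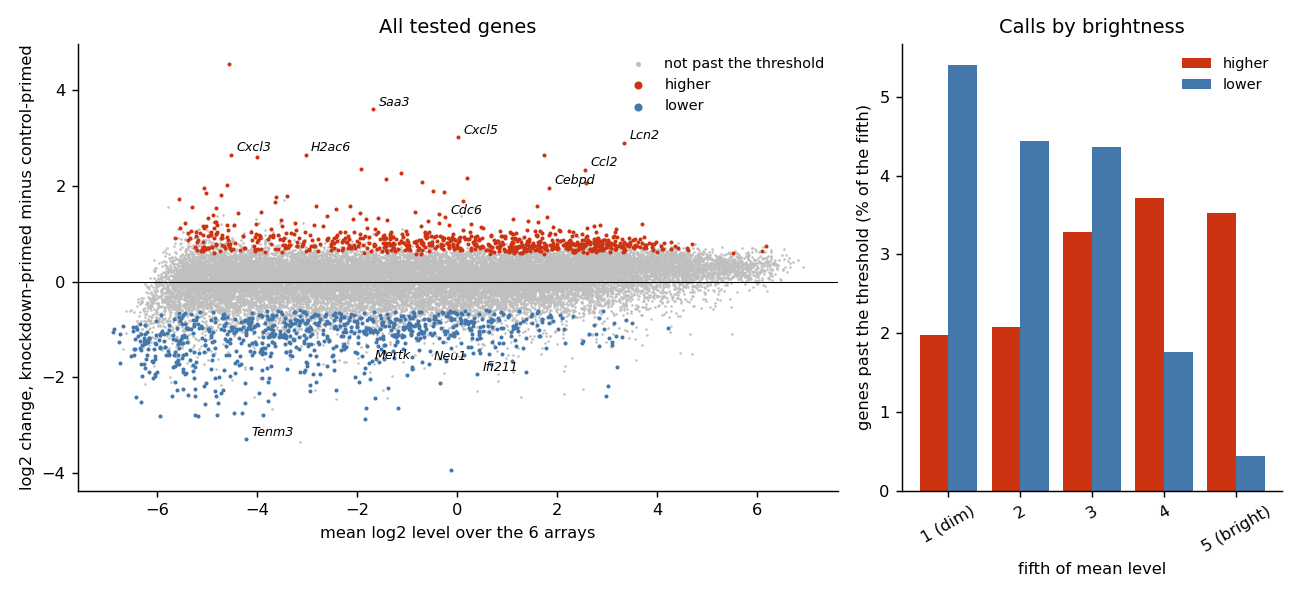
Left, the log2 change of each tested gene (knockdown-primed minus control-primed, 3 arrays each) against its mean log2 level over the 6 arrays, with called genes in red (higher) and blue (lower). Right, called genes as a percentage of the genes in 5 equal groups by mean level. Higher calls spread over all levels and, among genes measured on all 6 arrays, reach their greatest sizes with Saa3, Cxcl5 and Lcn2, while lower calls fall from 5.4% of the dimmest quintile to 0.44% of the brightest.

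Acute phase genes included Saa3, the largest rise among plain-symbol genes well above background on each of the 6 arrays. Of 32 listed genes 19 were tested, 8 rose (42.1%, beside 2.92% of all tested genes), none fell, and the median change was 0.32. This list and those below were written with earlier results of these data known. Their shares of called members therefore describe the lists and test nothing. Saa3, a serum amyloid A made outside the liver by macrophages and epithelia, read -3.42, -3.49 and -3.54 on the control-primed arrays and -0.02, -0.03 and 0.41 on the knockdown-primed arrays. The lowest knockdown-primed array lay more than 3 log2 units above the highest control-primed array, and the change was 3.60 ± 0.17 (SE), or 12.1-fold, with a limma adjusted p of 4.46e-05. Its probe lies at chr7:53970389-53970448 in mm9.

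Lcn2, lipocalin-2, which withholds iron-loaded siderophores from bacteria, was among the brighter genes. It read 2.04, 1.81 and 1.82 after control priming and 4.56, 4.78 and 5.04 after knockdown priming. The groups were far apart, by 2.90 ± 0.17 (7.48-fold, limma adjusted p = 1.9e-04). Slpi, the secretory leukocyte protease inhibitor, went from -2.61, -1.91 and -2.25 to -0.18, -0.23 and 0.43, a rise of 2.27 ± 0.24. Saa1 went from -0.95, -0.98 and -0.74 to 1.23, 1.17 and 1.41 (2.16 ± 0.16), and haptoglobin, Hp, which clears free haemoglobin, from -2.10, -1.52 and -1.61 to 0.34, 0.45 and 0.24 (2.09 ± 0.19). These 3 genes, like Saa3 and Lcn2, are among the 14 largest rises, which were chosen for groups that do not overlap.

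Smaller rises came from ceruloplasmin, Cp, the copper-carrying ferroxidase (1.05 ± 0.19), from Il6, the cytokine that drives the hepatic acute phase response (1.04 ± 0.23), and from Saa2 (0.98 ± 0.15). Il6 and Saa2 stayed near the floor of the array, with Il6 at -5.56 to -5.88 in control-primed and -4.20 to -5.00 in knockdown-primed cells. Saa1 and Saa2 are near-identical copies that the probes may not separate. The 11 tested members that were not called included Socs3, the feedback inhibitor of STAT3 signalling (0.54 ± 0.17, adjusted p = 0.0823), Orm3 (0.11), Il1rn (-0.01) and the lipopolysaccharide-binding protein gene Lbp (-0.50 ± 0.40). Calls of Saa3, Lcn2, Slpi, Saa1 and Hp held with any 1 array left out, and the count fell to 5 without control-primed replicate 2 and to 5 without control-primed replicate 3.

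Chemokine genes formed the second group. Of 36 listed, 21 were tested, 7 rose (33.3%, beside 2.92% of all tested genes) and none fell, with a median change of 0.39. Cxcl5, a neutrophil attractant acting through CXCR2, read -1.45, -1.57 and -1.48 on control-primed arrays and 1.61, 1.20 and 1.74 on knockdown-primed arrays. The change of 3.02 ± 0.18 (8.11-fold, limma adjusted p = 1.9e-04) was the largest among chemokines. Cxcl1, of the same neutrophil-attracting family, stood at 1.62, 1.43 and 1.59 and rose to 3.58, 3.48 and 3.75, by 2.06 ± 0.15 (4.17-fold). Cxcl3 rose by 2.65 ± 0.23 from levels that were well above background on only 2 of the 3 control-primed arrays. Ppbp, which encodes the platelet basic protein CXCL7, rose by 1.01 ± 0.19.

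Monocyte attractants moved by like amounts. Ccl2 was 1.50, 1.46 and 1.19 after control priming and 3.60, 3.51 and 4.06 after knockdown priming, a rise of 2.34 ± 0.19 (5.07-fold). Its neighbour Ccl7 was -2.47, -2.49 and -2.55 and became -0.31, -0.64 and -0.10, a rise of 2.15 ± 0.18. Both genes were chosen among the largest rises for groups that do not overlap. Ccl17, which attracts CCR4-bearing T cells, rose by 0.97 ± 0.15.

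The chemokines that T cells and natural killer cells follow through CXCR3 were not called. Cxcl10 changed by 0.00 ± 0.19 and Cxcl11 by 0.10 ± 0.18, the latter at a high level of 5.26 to 5.84 on the 6 arrays. Ccl5 changed by -0.04 ± 0.18, and Ccl9 by 0.76 ± 0.23 (adjusted p = 0.0758). The count of 7 was 5 without control-primed replicate 3 and 5 without knockdown-primed replicate 3, the genes lost being Ccl17 and Ppbp in both fits.

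**Figure D2:**
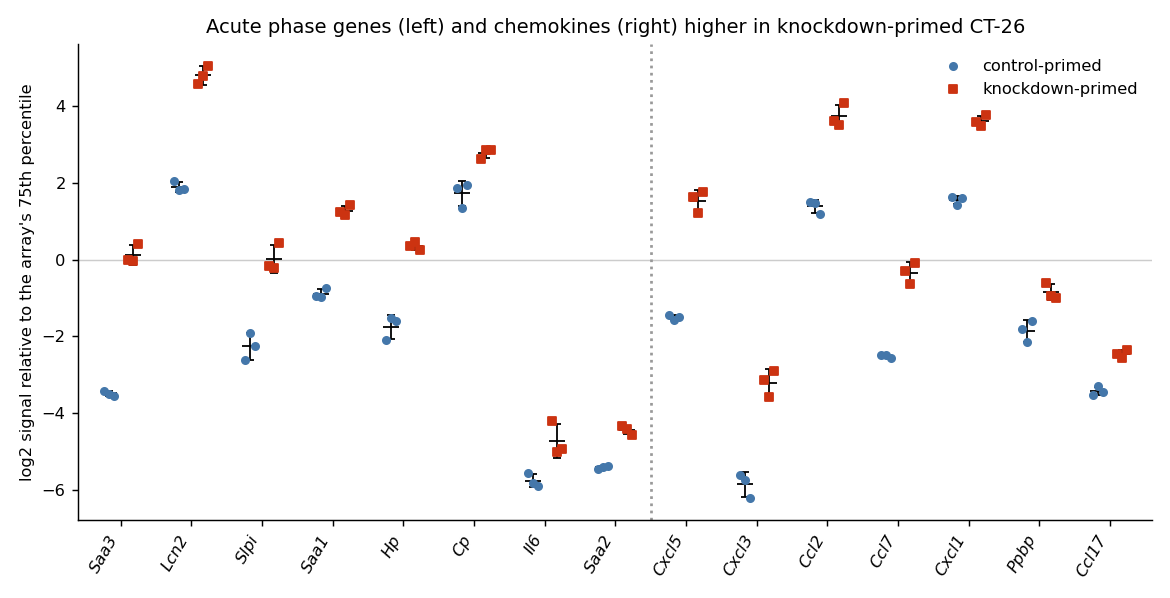
Log2 signal relative to the array's 75th percentile on each of the 6 arrays for the 8 acute phase genes and 7 chemokines called higher (blue circles control-primed, red squares knockdown-primed, bars mean ± SD, n = 3). No gene's groups overlap, with the widest gap at Saa3 (change 3.60) and the narrowest at Il6 (change 1.04). The genes were chosen by their call, which favours groups that do not overlap. Of all tested genes 24.3% were higher without overlap.

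Genes for C/EBP and NF-kB pathway factors were called too, and their part in the rises above was not tested. Cebpd is the C/EBP-delta factor that acute phase cytokines induce. It read 0.95, 0.80 and 0.79 in control-primed and 2.46, 2.82 and 3.15 in knockdown-primed cells, a rise of 1.96 ± 0.19 (limma adjusted p = 0.00254). In the list of NF-kB targets and regulators 4 of 34 tested members rose (11.8%, beside 2.92% of all tested genes) and none fell. The list median was 0.24, and 0.07 with the median change of each gene's own brightness quintile subtracted. Zc3h12a, the ribonuclease Regnase-1 that degrades Il6 mRNA, rose by 1.26 ± 0.16, and the nuclear IkB proteins Nfkbid (1.27 ± 0.19), Nfkbiz (2-fold, limma adjusted p = 0.0196) and Bcl3 (0.62 ± 0.16) were also called higher. Nfkbiz encodes IkB-zeta, which NF-kB needs at Lcn2 and Il6. Without control-primed replicate 3 none of these 4 was called, and without control-primed replicate 2 there were 2.

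Secreted growth factors and cytokines moved both ways. Of 35 tested members 3 were higher, Il6 among them (8.57%, beside 2.92% of all tested genes), and 4 lower (11.4%, beside 3.28%). Csf3, the granulocyte colony-stimulating factor, read -5.86, -5.88 and -6.53 in control-primed cells, where 2 of 3 arrays were well above background, and -4.66, -4.55 and -4.40 in knockdown-primed cells. It rose by 1.56 ± 0.21 and its groups did not overlap, yet it stayed among the dimmest genes. Fgf7, keratinocyte growth factor, rose by 0.82 ± 0.18. Fgf1 fell by 1.54, Il11, a STAT3-activating cytokine of the IL-6 family, fell by 1.07, the activin subunit Inhba fell by 0.70 and Il34, another ligand of the CSF1 receptor, fell by 0.71. The counts were 1 and 1 without control-primed replicate 2, 1 and 0 without control-primed replicate 3, 2 and 2 without knockdown-primed replicate 2, and 1 and 0 without knockdown-primed replicate 3.

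The promoters of 4 of these genes are shown because NF-kB and C/EBP factors are the known activators of acute phase and chemokine genes. They are the 250 bases before the RefSeq start (GRCm38.p6), written 5′ to 3′ along the gene, with capitals marking matches to the NF-kB consensus or to the C/EBP motif TTGCNNAA on either strand. Saa3 (chr7:46715677-46715926, minus strand) and Lcn2 (chr2:32387740-32387989, minus strand) each hold a C/EBP match, Il6 (chr5:30012864-30013113, plus strand) holds one of each kind, and Cxcl1 (chr5:90890995-90891244, plus strand) holds an NF-kB match that reads on both strands.
Saa3: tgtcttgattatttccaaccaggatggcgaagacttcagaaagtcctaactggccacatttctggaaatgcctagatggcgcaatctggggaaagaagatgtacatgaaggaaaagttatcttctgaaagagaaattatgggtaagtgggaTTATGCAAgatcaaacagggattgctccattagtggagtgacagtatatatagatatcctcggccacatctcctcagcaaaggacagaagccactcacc
Lcn2: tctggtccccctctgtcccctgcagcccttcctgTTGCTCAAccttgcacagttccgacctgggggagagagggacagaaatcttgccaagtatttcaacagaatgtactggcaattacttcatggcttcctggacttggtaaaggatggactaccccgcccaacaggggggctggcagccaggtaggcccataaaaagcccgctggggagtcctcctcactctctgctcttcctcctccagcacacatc
Il6: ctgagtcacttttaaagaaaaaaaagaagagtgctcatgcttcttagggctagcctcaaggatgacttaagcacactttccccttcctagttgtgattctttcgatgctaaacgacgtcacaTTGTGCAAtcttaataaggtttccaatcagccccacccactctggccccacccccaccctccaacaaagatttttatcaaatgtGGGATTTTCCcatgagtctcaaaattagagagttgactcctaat
Cxcl1: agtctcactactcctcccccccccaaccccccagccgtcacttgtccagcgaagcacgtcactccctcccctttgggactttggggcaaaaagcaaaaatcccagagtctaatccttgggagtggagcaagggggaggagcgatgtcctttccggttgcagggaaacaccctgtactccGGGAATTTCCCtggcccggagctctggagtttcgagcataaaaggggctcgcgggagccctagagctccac

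The Saa3 match ends 91 bases before the start and the Lcn2 match 208 bases before it. The NF-kB match of Il6 ends 34 bases before the start. Of the 15 acute phase and chemokine genes that rose, 11 had a promoter in the table, 6 of these held a C/EBP match and 3 (Il6, Cxcl1 and Cxcl3) an NF-kB match. Among all 27025 promoters of the same length, 9.55% held the C/EBP motif and 3.75% the NF-kB consensus. A match is a string of letters and not evidence of binding.

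Other large rises lay outside these lists. Zmynd15, a zinc finger gene best known from spermatids, went from -5.12, -5.31 and -5.51 to -2.92, -2.56 and -2.61, a rise of 2.61 ± 0.17 that its second probe, at 0.17 and measured on 2 of 3 knockdown-primed arrays, did not share. Urah, which hydrolyses an intermediate of uric acid degradation, rose by 2.36 ± 0.19 on one probe and 1.81 on the other. Gpr84, a receptor for medium-chain fatty acids on myeloid cells, read -5.58, -5.49 and -5.75 and then -3.71, -3.49 and -3.55 (2.02 ± 0.16). Thbs1, thrombospondin-1, rose by 1.87 ± 0.17 and was the only one of 37 tested mesenchymal and matrix genes called higher (2.7%, beside 2.92% of all tested genes). Taking the 14 greatest rises that were measured above background on every array, 13 kept their call with any 1 array left out, and H2ac6 lost its call without control-primed replicate 3 or knockdown-primed replicate 3. These 14 were chosen for groups that do not overlap, so in column 3 the knockdown-primed array had to lie above the control-primed array. The differences within that column were 1.16 to 3.40. The part of slide column in the rises was not tested.

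**Figure D3:**
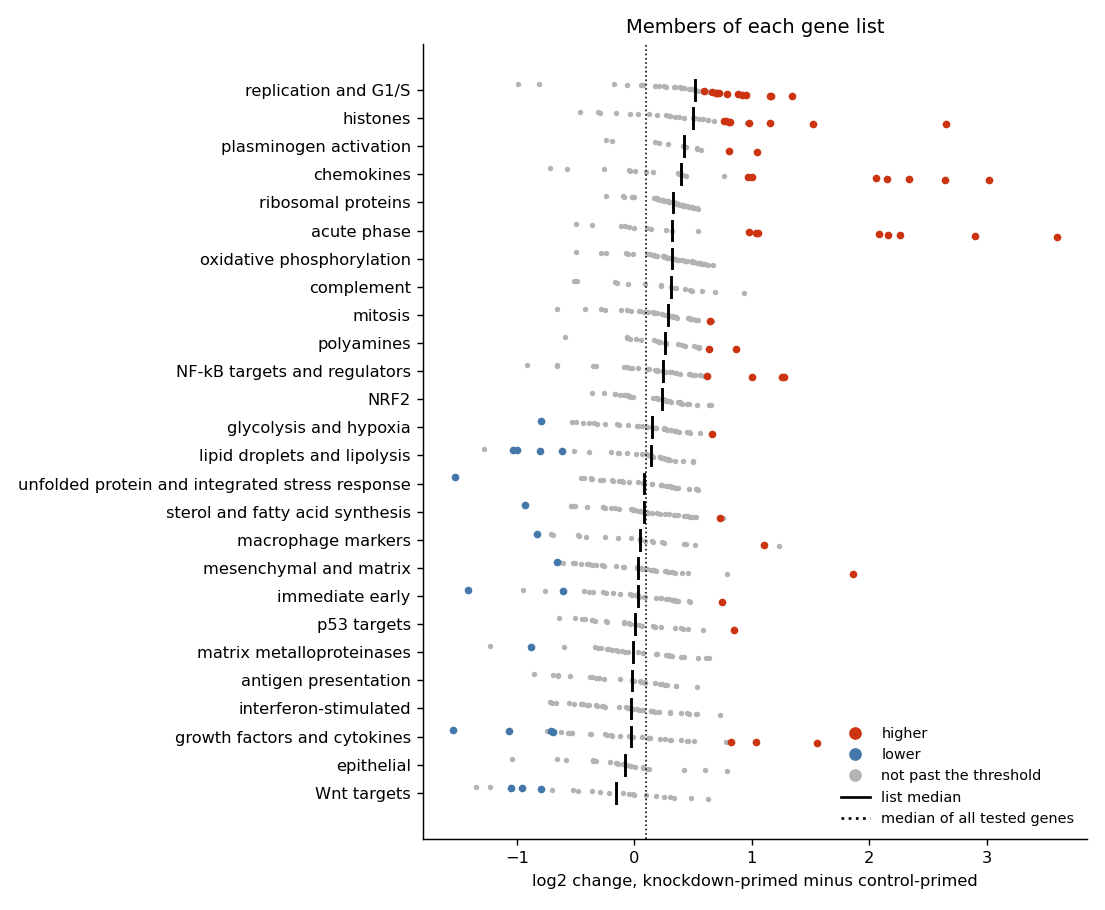
Log2 change of each tested member of the 26 gene lists, red for members called higher, blue for members called lower and grey for the rest, with the list median as a black bar and the median of all tested genes (0.10) as a dotted line. Acute phase genes and chemokines combine a modest median with a far upper tail, whereas replication, ribosomal protein and oxidative phosphorylation genes have medians of 0.32 to 0.52 with few far outliers.

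Among genes of DNA replication and the G1/S transition, 12 of 41 tested rose (29.3%, beside 2.92% of all tested genes) and none fell. The median change was 0.52 beside 0.10 over all tested genes. Cdc6, which loads the MCM helicase at origins, read -0.76, -0.98 and -1.01 in control-primed and 0.56, 0.35 and 0.37 in knockdown-primed cells, a rise of 1.34 ± 0.16 (limma adjusted p = 0.00539) that its second probe shared at 1.29. The groups were separated by more than 1 log2 unit. Ccne1, cyclin E1, rose by 1.17 ± 0.19, and its kinase partner Cdk2 by 0.88 ± 0.17. Mcm5, a helicase subunit, went from 1.86, 1.76 and 1.82 to 2.53, 2.89 and 2.87 (0.95 ± 0.16).

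The others called were the origin and helicase factors Cdc45 (1.15 ± 0.22), Orc1 (0.91 ± 0.16), Mcm3 (0.70 ± 0.15) and Mcm10 (0.59 ± 0.15), the clamp loader subunit Rfc4 (0.79 ± 0.19), the maintenance methylation factor Uhrf1 (0.72 ± 0.17), thymidylate synthase Tyms (0.70 ± 0.17) and the CDK4/6 inhibitor Cdkn2c (0.66 ± 0.16). Of 37 mitosis genes 1 was called (2.7% higher, beside 2.92% of all tested genes), the anaphase activator Cdc20 (0.64 ± 0.16), and the median was 0.28. The difference between the 2 lists was not tested.

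Of 31 tested histone genes 8 rose (25.8%, beside 2.92% of all tested genes), none fell, and the median was 0.50. H2ac6 was at -3.82, -4.55 and -4.71 and rose to -2.66, -0.92 and -1.54, by 2.65 ± 0.40, with the largest SE among the 14 greatest rises. H2bc8 (1.52 ± 0.34) and H3c1 (1.16 ± 0.21) followed, then H4c4 (0.98), H4c3 (0.81), H2ac18 (0.81), H2ac4 (0.78) and H2ax (0.76). Clustered histone genes are near-identical copies, so a probe may read several of them. On knockdown-primed replicates 1, 2 and 3 the list median lay 0.26, 0.40 and 0.64 above the control-primed mean, and that of the replication list 0.38, 0.49 and 0.65.

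Brightness moved with these lists. Of the 41 replication genes 25 were in the brightest quintile, whose own median change was 0.26. With the median change of each gene's own quintile subtracted, the replication median was 0.29 and the histone median 0.36. The part of brightness in these shifts was not tested. With quantile normalisation the replication median was 0.34 with 7 calls and the histone median 0.38 with 7 calls. Replication and histone calls numbered 1 and 1 without control-primed replicate 2, 1 and 0 without control-primed replicate 3, 6 and 3 without knockdown-primed replicate 2, and 2 and 0 without knockdown-primed replicate 3, while the medians kept their direction in each of these fits.

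**Figure D4:**
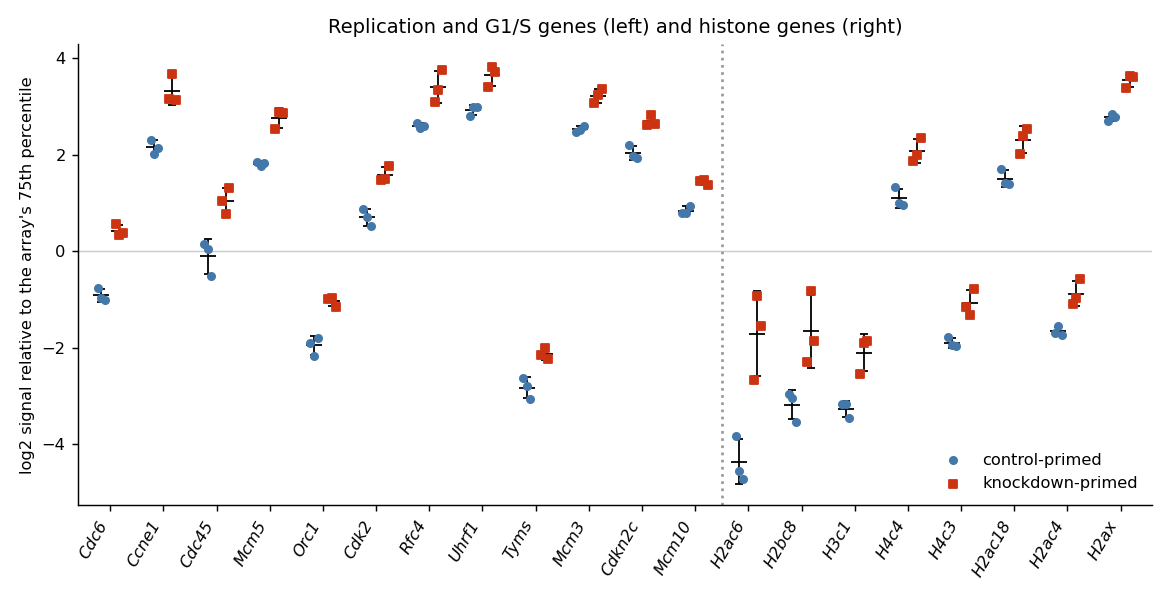
Log2 signal relative to the array's 75th percentile on each of the 6 arrays for the 12 replication and G1/S genes and 8 histone genes called higher (blue circles control-primed, red squares knockdown-primed, bars mean ± SD, n = 3). The groups are apart in each of the 20 genes, by the least in H2ac18 and by the most in H2ac6, whose knockdown-primed arrays span -2.66 to -0.92. The genes were chosen by their call, which favours groups that are apart. Of all tested genes 24.3% were higher without overlap.

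The Cdc6 and Mcm5 promoters are shown because E2F factors are the textbook regulators of these genes. Capitals mark matches to the E2F motif TTTNNCGC on either strand, in the 250 bases before the RefSeq start (GRCm38.p6) of Cdc6 (chr11:98907901-98908150, plus strand) and of Mcm5 (chr8:75109259-75109508, plus strand), where 2 matches overlap.
Cdc6: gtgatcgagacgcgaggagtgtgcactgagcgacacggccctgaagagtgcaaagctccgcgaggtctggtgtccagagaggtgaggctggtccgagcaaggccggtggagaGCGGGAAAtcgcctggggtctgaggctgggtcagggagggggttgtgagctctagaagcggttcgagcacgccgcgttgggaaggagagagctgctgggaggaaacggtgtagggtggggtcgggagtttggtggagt
Mcm5: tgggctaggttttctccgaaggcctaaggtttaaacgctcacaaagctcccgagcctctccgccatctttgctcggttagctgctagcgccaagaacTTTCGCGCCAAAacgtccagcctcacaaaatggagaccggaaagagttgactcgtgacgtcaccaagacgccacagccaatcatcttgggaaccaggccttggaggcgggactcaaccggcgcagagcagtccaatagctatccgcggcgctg

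The motif was present in 5 of the 12 replication promoters (Cdc6, Mcm5, Orc1, Cdk2 and Uhrf1) and in 4.39% of all 27025 promoters of that length. All 12 genes had a promoter in the table, and the 7 without a match lack only these letters in this window.

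The falls were of middling and low levels. Mertk, a receptor tyrosine kinase for the uptake of dying cells, read -1.32, -0.58 and -0.81 in control-primed and -2.52, -2.57 and -2.72 in knockdown-primed cells, and fell by 1.70. Neu1, the lysosomal sialidase, read 0.13, 0.48 and 0.26 against -1.31, -1.11 and -1.88, and fell by 1.72. Both genes were chosen among the largest falls for groups that do not overlap. Ifi211, a PYHIN family gene, went from 1.46, 1.19 and 1.46 to -0.04, -1.33 and -0.33 and fell by 1.94. None of 38 interferon-stimulated genes tested was called in either direction, beside 6.2% of all tested genes.

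Ppargc1a, the PGC-1alpha coactivator of mitochondrial biogenesis, fell by 1.62 on its brighter probe, the other probe not being well above background on any knockdown-primed array. The cytochrome P450 gene Cyp2b23 fell by 1.94, the heparan sulfate enzyme gene Ndst3 fell by 1.85, and Il5ra, the IL-5 receptor alpha chain, fell by 1.67. Slurp2 (-1.75 ± 0.36), Cd6 (-1.78 ± 0.45), Rsbn1l (-1.65 ± 0.25) and the pseudogenes Ppp4r1l-ps (-1.81 ± 0.18) and Dph3b-ps (-1.61 ± 0.41) completed the list, in which Cd6 and Dph3b-ps had adjusted p-values of 0.0498 by limma. Pcgf2, a Polycomb subunit, fell by 1.91 on one probe and read 0.07 on the other, and Adam33 fell by 1.68 on one and read -0.13 and -0.52 on the others.

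Second probes were read for genes changed at least 2-fold. Of 25 risen genes with another probe well above background on all 6 arrays, that probe moved the same way in 22, with a median of 0.73 against 1.06 on the reporting probe. Of 55 fallen genes it did so in 46, with a median of -0.52 against -1.17. In choosing the 14 largest falls 33 unnamed, predicted or clone features were passed over, against 1 among the rises. Without control-primed replicate 3 the calls of 7 of the 14 falls remained, and without knockdown-primed replicate 3 those of 9. With no filter on background 2 of the 14 falls kept their call, against 13 of the 14 rises. The falls too were chosen for groups that do not overlap, so in column 3 the knockdown-primed array had to lie below the control-primed array. The differences within that column were -1.79 (Rsbn1l) to -0.09 (Cd6), with Ppargc1a at -1.71 and Neu1 at -1.44. The part of slide column in the falls was not tested.

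Some transcripts could be given only a bound. Tenm3, a teneurin adhesion protein, was well above background on all control-primed arrays at -3.96, -1.66 and -2.13 and on none of the knockdown-primed arrays, so it was at least 7.31-fold lower. By the same measure the large GTPase gene Dnm3 was at least 2.98-fold lower, protein kinase C beta, Prkcb, at least 2.14-fold, the MYC antagonist Mxi1 at least 2.06-fold and Speer3 at least 2.05-fold. A bound sets the control-primed mean against the lowest signal well above background on each knockdown-primed array, or the probe's own signal where that is higher. In all, 31 genes with a plain symbol were called with such a bound in the downward direction and 0 in the upward, on arrays where fewer spots cleared background after knockdown priming. Mxi1, Speer3 and Tenm3 lost their call without control-primed replicate 3, Mxi1 and Speer3 without control-primed replicate 2, Tenm3 without knockdown-primed replicate 3, and Mxi1, Prkcb and Speer3 with normexp.

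Among pathway lists with falls, 3 of 22 Wnt targets and regulators fell (13.6%, beside 3.28% of all tested genes), none rose, and the median was -0.16. Sox9, a progenitor transcription factor, read 1.20, 1.26 and 1.09 against 0.17, 0.29 and 0.23 and fell by 0.95 with no overlap. The Wnt antagonist Dkk2 fell by 1.05 and the receptor Fzd7 fell by 0.80. Without control-primed replicate 2 or without control-primed replicate 3 none of the 3 was called, without control-primed replicate 1 or knockdown-primed replicate 2 or 3 there was 1, and without knockdown-primed replicate 1 there were 5.

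Lipid genes, listed because ABHD5 acts on lipid droplets, gave 4 falls and no rise among 35 tested (11.4%, beside 3.28% of all tested genes). Their median was 0.14, beside 0.10 over all tested genes. The droplet coat gene Plin4 fell by 1.03, the phosphatidate phosphatase gene Lpin1 fell by 0.998, and the beta-oxidation enzymes Acadl and Hadha fell by 0.81 and 0.62. Sterol and fatty acid synthesis had 1 rise, Elovl1 (0.73 ± 0.16), and 1 fall, Insig1 (-0.93 ± 0.19), among 40. Each was 2.5% of the list, beside 2.92% higher and 3.28% lower over all tested genes. Abhd5 itself, not targeted in CT-26 cells, read 0.98, 0.81 and 0.83 against 0.88, 0.82 and 1.11, overlapping groups with a change of 0.06 ± 0.16 (95% interval -0.28 to 0.41, limma adjusted p = 0.799). Its other, dimmer probes, well above background on every CT-26 array, changed by -0.31 and -0.49. In RAW264.7 Abhd5 changed by -1.32 ± 0.20 (limma adjusted p = 0.00342), and by -1.24 ± 0.29 (adjusted p = 0.0541) with the slide as a block. The 4 lipid calls were 0 without control-primed replicate 2 or 3, 2 without knockdown-primed replicate 2 and 1 without knockdown-primed replicate 3.

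Single members were called in several other lists, beside 6.2% of all tested genes called in either direction. Egr2, an immediate early factor, read -2.31, -2.14 and -2.01 against -3.66, -3.60 and -3.47 and fell by 1.42 with no overlap, while Dusp4 fell by 0.61 and Ier3 rose by 0.75 ± 0.16, the other 31 of 34 immediate early genes not being called. Eif2ak3, the endoplasmic reticulum stress kinase PERK, fell by 1.53, the only call among 35 stress response genes. The plasminogen activation list had 2 of 12 higher (16.7%, beside 2.92% of all tested genes), the serpins Serpinb2 (1.04 ± 0.16) and Serpinb9 (0.80 ± 0.19), with a median of 0.43. The polyamine list had 2 of 22 higher (9.09%), Amd2 (0.87 ± 0.17) and Paox (0.63 ± 0.16). Mmp13, collagenase-3, fell by 0.88, the only call among 28 metalloproteinase genes. Pdgfrb fell by 0.66 in the mesenchymal list, the apoptosis nuclease Aen rose by 0.84 ± 0.20 among 27 p53 targets, and Pfkfb3 (0.66 ± 0.16) and Ankrd37 (-0.79 ± 0.19) went opposite ways among 35 glycolysis and hypoxia genes. With control-primed replicate 3 left out only Egr2, of the genes in this paragraph, kept its call.

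Lists without a call were complement (0 of 17, median 0.31), interferon-stimulated genes (0 of 38, median -0.03), antigen presentation (0 of 27, median -0.02), epithelial genes (0 of 22, median -0.08), NRF2 targets (0 of 34, median 0.24), oxidative phosphorylation (0 of 45, median 0.32) and ribosomal proteins (0 of 50, median 0.33), by limma with the adjusted threshold. Without knockdown-primed replicate 1, 12 oxidative phosphorylation genes were called higher and 1 lower, whereas in the other lists of this paragraph at most 3 were called with any 1 array left out. Across all tested genes 6.2% were called in either direction, and 7358 (29.4%) had an unadjusted p under 0.05. All 50 ribosomal protein genes and 43 of 45 oxidative phosphorylation genes were in the brightest quintile, and with quantile normalisation their medians were 0.04 and 0.09. In the complement list Cfd (0.93 ± 0.26), Cfb (0.69 ± 0.19), C1ra (0.57 ± 0.15) and C3 (0.48 ± 0.17) had adjusted p-values of 0.0576 to 0.108. Among 22 tested macrophage markers Trem2 rose by 1.11 ± 0.18 and Cd68 fell by 0.83, the latter with a second probe at -0.89; neither was called without control-primed replicate 2, control-primed replicate 3 or knockdown-primed replicate 3.

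The CT-26 changes were set beside those of the macrophages, knockdown minus control, with an interaction contrast over all 12 arrays. RAW264.7 controls 1 and 2 lay on one slide, and control 3 with all knockdown arrays on another, so slide and group were largely confounded there. In the macrophages alone 5856 of 25461 tested genes (23%) were called, and 1173 (4.61%) with the slide as a block. Over all genes 8380 of 27074 (31%) differed between the cell lines. Of the 33 genes named for size or bound the difference was called for 20. Saa3, Saa1 and Lcn2 gave no call, with changes of 3.60 in CT-26 and 4.04 in RAW264.7 for Saa3 (difference -0.44 ± 0.51, adjusted p = 0.522), 2.16 and 2.15 for Saa1 (difference 0.01 ± 0.26) and 2.90 and 2.78 for Lcn2 (difference 0.12 ± 0.27). A missed threshold does not show that the cell lines responded alike.

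Ccl2 and Slpi rose further in the macrophages, by 6.30 and 4.30, than in CT-26. Ccl7 was not well above background on any control RAW264.7 array and was at least 266-fold higher after knockdown there. The difference was in favour of CT-26 for Cxcl1, Zmynd15, Cebpd, Gpr84 and H2ac6, and for Cxcl5, which on RAW264.7 control arrays was not well above background and allows no fold there. The 12 largest falls that were also tested in RAW264.7 changed there by -0.28 to 1.03, the latter in Mertk (1.03 ± 0.31, measured on 1 of 3 control arrays, and 0.34 ± 0.30 with the slide as a block). The median difference over all genes was 0.38, and 0.20 with median centring, 0.10 with quantile normalisation and 0.52 with normexp, so a difference counts relative to that shift. Of 8380 called differences 75.8% were positive, against 63.5%, 58.6% and 84.7% in those fits. With the slide as a block 2378 genes and 10 of the 20 named differences were called, and Cxcl1 was lost there and with median centring and quantile normalisation.

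**Figure D5:**
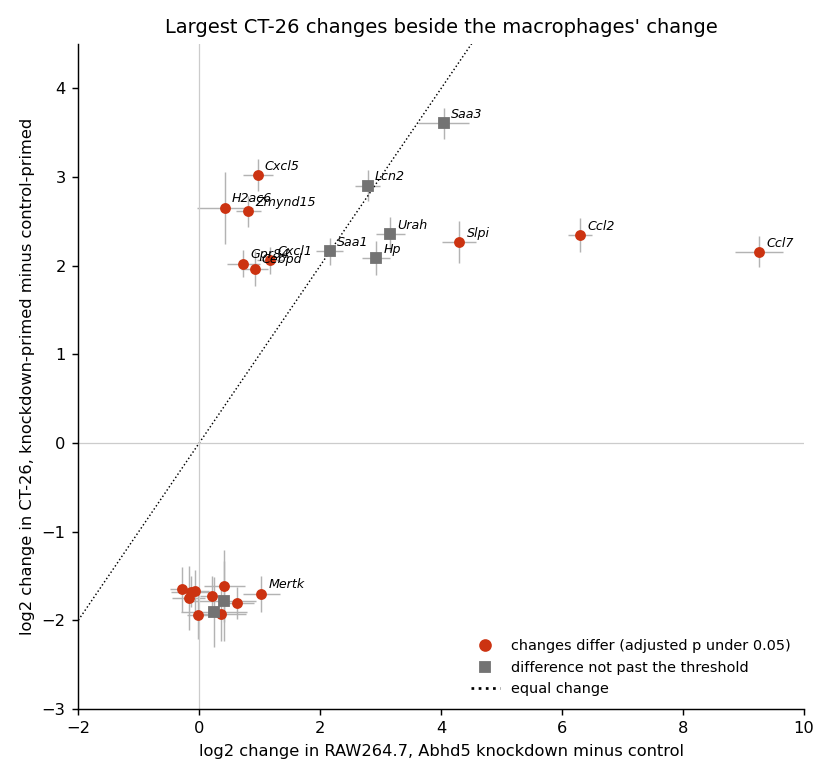
Log2 change in CT-26 (vertical, knockdown-primed minus control-primed) against log2 change in RAW264.7 (horizontal, Abhd5 knockdown minus control) for 26 of the 28 genes with the largest CT-26 changes, with bars of 1 SE; red circles mark changes that differ and the dotted line equal change. Saa1 and Lcn2 lie on the line and Saa3 near it, Ccl2 and Ccl7 lie far to the right, and all falls lie left of 1.1 on the horizontal axis, with 2 falls (Ndst3 and Ppargc1a) missing because they were not tested in RAW264.7.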

How the data were processed

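Gene expression was measured on 6 single-colour arrays of primed CT-26 cells, 3 per group, with 6 RAW264.7 arrays used for one contrast. The deposited scanner files hold Cy3 intensity per spot, background-corrected within the array by Agilent Feature Extraction 10.7.3.1, per the file headers, which give probe coordinates of mm9. The deposited series-wide values are also intensity, and how they were made is not given in the sources used here. Only 1 of the 6 CT-26 columns there tracked the scanner file of the same sample, the other 5 tracking a different array of their group, so they served only as an alternative.

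From the 55681 non-control probes, log2 intensity of the deposited signal minus each array's 75th percentile was computed. Probes were named through the RefSeq gene table by accession (26762) or symbol (3819), and 25100 kept the design's name. A gene was read from its brightest detected probe over the 12 arrays and tested when the scanner software put that probe well above background on 3 of 3 arrays in at least 1 group. Groups were compared with limma 3.58.1 (lmFit and eBayes, R 4.3.3) and Benjamini-Hochberg adjustment at 0.05. The number of arrays limits the precision. The procedure was tested on simulated data.

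The rule for genes named in the text took Abhd5, the 14 greatest rises and falls measured on all 6 arrays with no overlap, up to 5 bounds per direction, and up to 5 members per list by p, plus every called acute phase, chemokine, growth factor and macrophage member. Other list members were named after their values were seen, to complete the called members or to show uncalled ones. Members and lists were chosen with earlier results of these data known. Scaling, background correction, filter, probe choice, variance model, replicate block, slide position and left-out arrays were varied. Promoters came from the RefSeq table of GRCm38.p6.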

Additional observations from a re-analysis of the deposited data

Results flagged for a closer look

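The change in CT-26 cells differed from that in RAW264.7 macrophages, by an interaction contrast in limma with Benjamini-Hochberg adjusted p under 0.05, for 20 named genes. Values are CT-26 change minus RAW264.7 change on the log2 scale, and their causes were not tested.

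Among genes higher in knockdown-primed CT-26, the difference was positive for H2ac6 (2.23), Cxcl5 (2.06), Zmynd15 (1.80), Gpr84 (1.29), Cebpd (1.05) and Cxcl1 (0.884). It was negative for Ccl7 (-7.10), Ccl2 (-3.96) and Slpi (-2.03). The values of Ccl7 and Cxcl5 are differences against RAW264.7 control signals that were not well above background on any array, and so are not exact sizes.

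Among genes lower in knockdown-primed CT-26, the difference was -2.73 for Mertk, -2.44 for Ppp4r1l-ps, -2.29 for Ifi211, -2.02 for Dph3b-ps, -1.93 for Cyp2b23 and -1.92 for Neu1. It was -1.60 for Il5ra, -1.58 for Slurp2, -1.53 for Adam33, -1.40 for Speer3 and -1.37 for Rsbn1l. Speer3 was not well above background on any knockdown-primed CT-26 array and was so on 1 of 3 RAW264.7 control arrays, so its value is not an exact size. With the slide as a block 10 of the 20 kept their call, and Adam33, Cxcl1, Dph3b-ps, Gpr84, H2ac6, Ifi211, Rsbn1l, Slpi, Slurp2 and Speer3 did not.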

How the results depend on the processing

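The 1549 CT-26 calls became 41 with no filter on background, 918 with the replicate number as a block, 16 without the 2 knockdown-primed arrays of slide column 4 (chosen after the array positions were read), and 92 to 2950 with 1 array left out. The 602 calls of at least 2-fold became 346 with normexp, 41 with no filter, 16 without the column 4 arrays and 92 to 1008 with 1 array left out. Deviations of same-numbered samples from their group means correlated at -0.113, -0.208 and -0.0508. With 3 arrays per group these values cannot show whether the numbers pair the samples. The block left 6 replication and 4 histone calls. The 8380 differences from RAW264.7 became 2378 with the slide as a block and 4962 to 10072 with 1 array left out. Of 84 called named genes, 72 kept their call with quantile normalisation, 80 with normexp, 65 with the replicate block, 19 with no filter, 27 to 80 with 1 array left out and 4 without the column 4 arrays, and none of these reversed. The variance trend gave 2287 calls. The 5856 calls in RAW264.7 became 1173 with the slide as a block, a fit chosen after the results were seen.

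Direction turned for some values. Abhd5 read -0.015 with the percentile over detected probes, -0.24 as a mean of probes and -0.020 to 0.12 with 1 array left out. With normexp C2 read 0.019, Cdkn2a 0.30 and Krt19 0.052. With the brightest CT-26 probe Lcp1 read 0.21 and Loxl2 -3.19, and as means of probes Loxl2 read -1.12 and Psme2 -0.15. The difference from RAW264.7 for Lcn2 was -0.064 with median centring, -0.47 with quantile normalisation and -0.016 to 0.29 with 1 array left out. For Saa1 it was -0.18 with median centring, -0.056 with normexp and -0.15 to 0.14 with 1 array left out, below 0 in 6 of 12 such fits. For Saa3 it was 0.62 with the slide block, and with normexp it was 0.29 for Mxi1 and 0.025 for Speer3. With 1 array left out it was -0.84 to 0.33 for Dnm3 and -0.99 to 0.096 for Ndst3, above 0 only without RAW264.7 control replicate 3. The cause was not tested.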

Other observations

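The following lists and names were chosen after the main results were seen. Of 22 tested genes of iron, zinc and copper handling 6 rose (27.3%, beside 2.92% of all tested genes) and none fell, with a median of 0.31, but the list was built after the results were seen and 3 of the 6 are described above, so nothing rests on the count. Beside Lcn2, Hp and Cp these were Slc11a1, the phagosomal metal transporter NRAMP1 (1.89 ± 0.17, limma Benjamini-Hochberg adjusted p = 0.00187), the zinc importer Slc39a4 (1.32 ± 0.22) and the transferrin receptor Tfrc (0.99 ± 0.22). Slc11a1 read -1.38, -1.35 and -1.58 in control-primed and 0.21, 0.45 and 0.69 in knockdown-primed cells, without overlap.

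In a list of 26 cytokine and pattern receptor genes that also held the adaptor gene Myd88, 2 rose (7.69%, beside 2.92% of all tested genes) and 3 fell (11.5%, beside 3.28%). The oncostatin M receptor gene Osmr rose by 0.99 ± 0.24 and Myd88 by 0.65 ± 0.16. Csf2ra fell by 1.50, Tlr4 fell by 0.75 and Il5ra, described above, fell by 1.67. Among 12 transcription factors of the acute phase response Cebpd alone was called. A transcript outside the naming rule, U90926, was higher by a fitted 4.54 ± 0.18 (limma adjusted p = 1.6e-05), a size that rests on control-primed signals near background. It read -6.65, -6.79 and -7.09 in control-primed cells, where 1 of 3 arrays was well above background, and -2.37, -2.45 and -2.08 in knockdown-primed cells. In RAW264.7 it was well above background on 0 of 3 control and 3 of 3 knockdown arrays.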
